A study of Arabidopsis thaliana with 39 samples.

Results

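The genes described here encode subunits of the 26S proteasome. They were the 48 loci on a list of core and regulatory particle subunits with a value in the deposited table, out of 20001 genes. The list used gene identity and no measured value, but was drawn up with earlier results of these data known. They comprise 12 genes of the alpha ring and 11 of the beta ring of the 20S core, and, in the 19S regulatory particle, 10 genes of the ATPase ring (RPT), 4 of the rest of the base and 11 of the lid. RNA was sequenced from whole seedlings of Arabidopsis thaliana, ecotype Col-0 (the wild type), after feeding with L-glutamate (L-Glu), an amino acid that can act as a signal in plants. Every seedling was 14 days old, had grown in liquid culture in continuous light at 23 degrees C, and carried no transgene or mutation named in the labels. The treatments were 20 mM L-Glu, 20 mM urea and 1 mM salicylic acid (SA, a defence hormone), each for 6, 12, 24 or 48 h, and a mock group given distilled water was taken at 0 h. With 3 libraries in each of 13 groups there were 39 libraries, and urea, the other nitrogen compound at the same dose and times, served as the reference at each time.

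The 26S proteasome is the protease that degrades proteins carrying ubiquitin chains. Substrates are recognised and deubiquitinated by the lid and base of the regulatory particle, unfolded by its ATPase ring, and threaded through a gate in the alpha ring to the protease sites of the beta ring. In Arabidopsis most subunits are encoded by a pair of genes, and the transcription factors NAC53 and NAC78 are known to raise the transcription of subunit genes together when proteasome activity is impaired.

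Subunit genes were expressed well above the typical gene. Their mean normalized values over the 39 libraries ran from 45.9 to 692 with a median of 221, against a median of 56.9 over all genes. Per library the normalized values added up to between 2445645 and 5886170, and these sums are not depth, which is unknown. In L-Glu at 24 h the sum was 5539052 ± 312913 (SD, n = 3), against 2616574 ± 63091 in urea at 24 h. In the same libraries 6 shoot markers, all encoding chloroplast proteins, summed to 3613 to 7830 in L-Glu and 66805 to 77341 in urea, and in L-Glu at 48 h to 1177 to 1436 against 44174 to 46299. The 6 root markers summed to 321 to 1602 over the SA libraries and 2364 to 4483 over the urea libraries, and EXPA7, COBL9 and CASP2 were listed at 0 in at least 1 library. In L-Glu they summed to 4445 to 8807 at 24 h and 16276 to 20658 at 48 h, most of it PYK10. In urea they summed to 3095 to 3406 and 2364 to 2943. At 48 h the L-Glu and urea means were 49.2 and 21.2 for MYB36 and 54.3 and 17.8 for EXPA7. They were 23.8 and 22.9 for COBL9, 57.4 and 77.2 for CASP1 and 24.0 and 32.3 for CASP2. The part of these shifts in the results below was not tested, and in whole seedlings fewer cells of a type cannot be told apart from less RNA per cell. Urea 48 h replicate 1 stood apart, with a sum of 14460 over the subunit genes against 10951 and 11233 in the other libraries of its group. Whether replicates came from separate cultures is not stated in the labels. The spread that the p-values rest on is therefore that among these libraries and may be technical.

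Before comparing treatments, levels were set on a common scale by dividing each value by the mRNA length in kilobases. The copies of a subunit among the 48 genes were then added. RPN1B and other measured subunit genes outside the 48 were left out, so a subunit with such a copy is understated. In urea the 31 subunits then lay between 124 and 448 per kilobase with a median of 219. By class the median level was 271 for the 7 alpha subunits, 206 for the 7 beta subunits, 306 for the 6 ATPases, 193 for the 3 other base subunits and 162 for the 8 lid subunits. Lid subunits thus had the lowest class median and ATPases the highest, a description of mRNA per length and not of protein.

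Averaged over the 4 times, subunit genes were mostly lower in L-Glu than in urea. Of 48 genes, 39 fell and 1 rose at an adjusted p below 0.05 (limma, Benjamini-Hochberg over all genes), beside 36.4% of all genes that were called lower and 33.0% called higher. The median log2 fold change was -0.34 and the range -0.85 to 0.29, so none reached a 2-fold difference on average. The median of all genes was -0.05, and 43 subunit genes lay below it. The changes ran through every class. All 12 alpha ring genes fell (median -0.50), as did 9 of 11 beta ring genes (median -0.40), 9 of 10 ATPase genes (median -0.34), 3 of 4 other base genes (median -0.30) and 6 of 11 lid genes (median -0.19). Whether the classes differ was not tested. The summed value of the 48 genes was 8565 ± 515 in L-Glu at 24 h and 11091 ± 410 in urea at 24 h (SD, n = 3). Scaling matters here. With every library brought to the same total the median of all genes moved to -0.52, and all 48 genes were called lower with a median of -0.32 relative to it, against -0.29 as deposited. In that setting 60.3% of all genes were called lower. Over all genes the share of calls that were higher moved from 47.6% to 38.2% under quantile normalization and 23.5% at the same total.

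**Figure D1:**
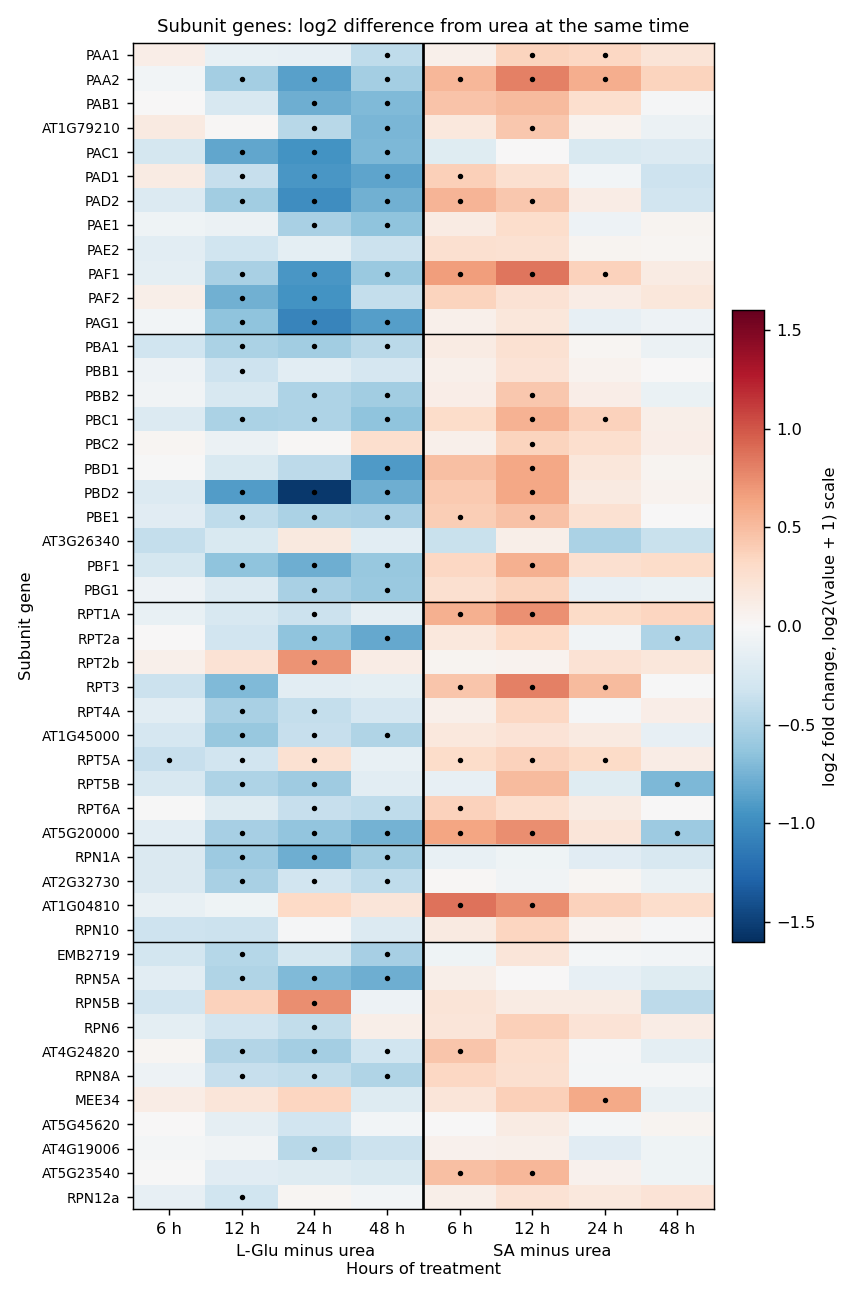
Log2 fold change of each of the 48 subunit genes (rows, grouped by class, from top alpha ring, beta ring, ATPase, other base and lid) against urea at the same time (columns, hours), for L-Glu on the left and SA on the right, on the log2(value + 1) scale. Dots mark genes with a limma adjusted p below 0.05. Blue fields fill most rows of L-Glu from 12 h, while RPT2b and RPN5B are red at 24 h in L-Glu, a direction that turns when libraries are brought to the same total.

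Most calls were made from 12 h on. At 6 h 1 subunit gene was called lower and none higher (all genes 3.15% lower and 8.36% higher), with a median log2 fold change of -0.12. At 12 h 26 fell and none rose (all genes 21.9% and 25.8%), with a median of -0.33. At 24 h 31 fell and 3 rose (all genes 31.3% and 29.3%), with a median of -0.43 and a range of -1.54 to 0.75. In 32 genes every L-Glu library at 24 h was below every urea library, and in 3 every one was above, where 32.8% and 30.4% of all genes were so separated. At 48 h 28 fell and none rose (all genes 27.6% and 25.2%), with a median of -0.42. Called at no single time were 8 of the 48 subunit genes and 21.5% of all genes. The count at 12 h was 16 without replicate 1 of every group and 13 without replicate 3 (all genes 14.4% and 15% lower). Without replicate 1 it was 20 at 24 h and 14 at 48 h (all genes 25.5% and 23.3%). Leaving out only urea 48 h replicate 1 gave 24 at 48 h and 37 for the average (all genes 25.4% and 35.6%).

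The alpha ring, which forms the gate of the core, showed the lowest class median at 24 h, with 10 of 12 genes lower and a median log2 fold change of -0.90. PAG1 had normalized values of 369, 352 and 333 in urea and 312, 405 and 315 in L-Glu at 6 h. At 24 h it stood at 350, 348 and 334 in urea and at 159, 183 and 152 in L-Glu. At 48 h it stood at 363, 292 and 338 in urea and at 166, 204 and 168 in L-Glu. The libraries overlapped at 6 h and were apart at both later times. Its log2 fold change was -1.06 ± 0.12 (SE) at 24 h (adjusted p 1.8e-09), -0.88 ± 0.12 at 48 h (adjusted p 1.14e-07) and -0.66 ± 0.06 over all times.

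PAC1, an alpha ring gene with no second copy among the members, had 379, 351 and 350 in urea at 12 h and 198, 217 and 190 in L-Glu. At 24 h it had 352, 333 and 348 in urea and 185, 147 and 204 in L-Glu. Every L-Glu library was below every urea library at both times. PAC1 fell by 0.83 ± 0.12 on the log2 scale at 12 h (adjusted p 1e-06), and its averaged log2 fold change of -0.70 ± 0.06 was the second lowest of the 48. PAF2 (-0.96 at 24 h), PAD1 (-0.93), PAF1 (-0.93), PAA2 (-0.87), PAB1 (-0.79) and PAD2 also fell at 24 h. PAF2 overlaps AT1G47260 on the opposite strand over 1652 bases, and without stated strandedness its reads cannot be told apart from that gene's. PAA1 and PAE2 were not called at 24 h.

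**Figure D2:**
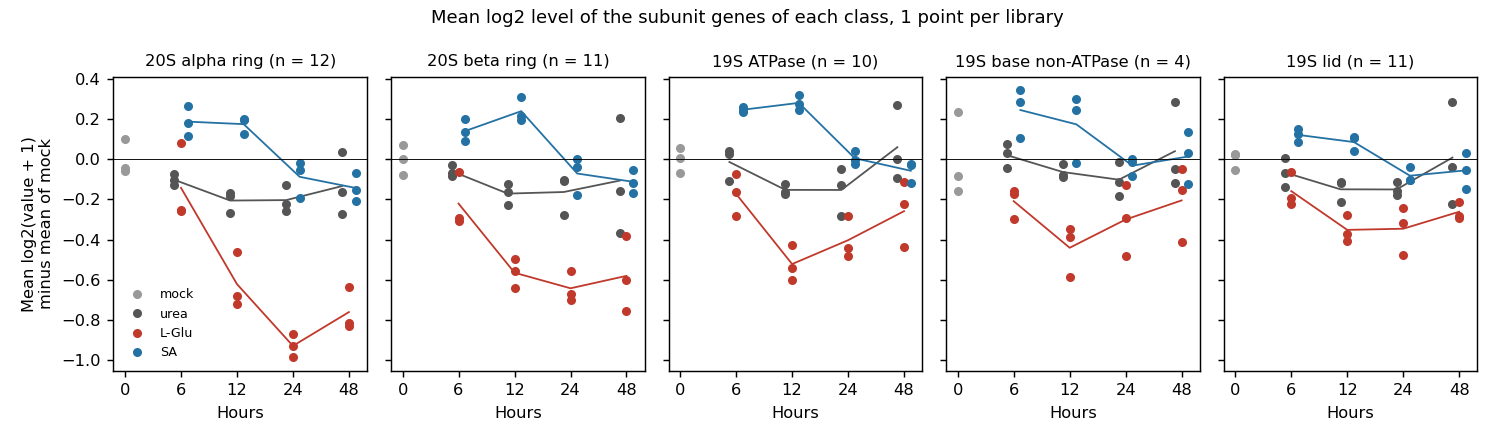
Mean of log2(value + 1) over the genes of each class, minus the mean of the 3 mock libraries, against hours of treatment; 1 point per library, lines through group means, n the number of genes. At 12 h the L-Glu points of every class lie below every urea point, and those of the alpha and beta rings do so at 24 and 48 h as well, those of the lid at 24 h, those of the ATPase ring at 48 h and those of the other base genes at 6 h.

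In the beta ring, PBD2 showed the lowest fold change of all 48 genes. It had 118, 134 and 124 in urea at 12 h and 55.1, 68.9 and 79.3 in L-Glu. At 24 h it had 151, 124 and 129 in urea and 51.7, 34.6 and 52.4 in L-Glu. The L-Glu libraries lay below all urea libraries at both times. PBD2 overlaps AT4G14805 over 217 bases and AT4G14790 over 45, both on the opposite strand, and reads there cannot be told apart without stated strandedness. PBD2 fell 2.91-fold at 24 h (log2 fold change -1.54 ± 0.21, adjusted p 1.23e-07), with -0.89 ± 0.21 at 12 h and -0.85 ± 0.11 over all times. Its partner PBD1 had 111, 75.9 and 88.9 in urea at 48 h and 31.8, 61.8 and 55.7 in L-Glu, also without overlap. PBD1 fell by 0.91 ± 0.20 at 48 h (adjusted p 0.000177), but without replicate 1 of every group the log2 fold change was -0.48 with an adjusted p of 0.103.

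PBA1, which carries the caspase-like protease site, had 236, 208 and 251 in urea at 24 h and 145, 140 and 190 in L-Glu. The groups did not overlap, and its averaged log2 fold change was -0.45 ± 0.08 (adjusted p 1.65e-05). The genes of the other catalytic subunits behaved less evenly. PBB1 and PBB2, of the trypsin-like subunit, fell on average by 0.21 and 0.34. PBE1, of the chymotrypsin-like subunit, fell by 0.41, while AT3G26340, the other gene of the pair, had a log2 fold change of -0.16 (adjusted p 0.191). PBF1 (-0.58), PBC1 (-0.47) and PBG1 (-0.35) also fell, and PBC2 had 0.06 (adjusted p 0.472).

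Among the ATPases, RPT2a and RPT2b moved apart. RPT2a, whose loss is known to enlarge Arabidopsis leaves, had 466, 447 and 377 in urea at 24 h and 275, 288 and 262 in L-Glu. RPT2b had 163, 141 and 120 in urea at 24 h and 227, 210 and 266 in L-Glu. Neither gene's groups overlapped, in opposite directions. At 24 h the log2 fold change was -0.64 ± 0.14 for RPT2a (adjusted p 0.000215) and 0.72 ± 0.15 for RPT2b (adjusted p 6.87e-05), which became -0.35 for RPT2b with libraries brought to the same total. RPT2b was the 1 member that rose on average (0.29 ± 0.07, adjusted p 0.000732), and it had -0.21 at the same total. At 6 and 48 h the RPT2b libraries of L-Glu and urea overlapped (212, 182 and 148 against 177, 165 and 162, and 128, 119 and 197 against 140, 126 and 134).

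RPT5A was the 1 gene called at 6 h, with 523, 618 and 571 in urea and 466, 416 and 442 in L-Glu. At 24 h it had 556, 568 and 480 in urea and 629, 575 and 692 in L-Glu. The groups were apart at both times, but on opposite sides. The log2 fold change was -0.37 ± 0.11 at 6 h (adjusted p 0.0175) and 0.24 ± 0.11 at 24 h (adjusted p 0.049), where quantile normalization gave -0.62 and the same total -0.84. The call at 6 h was lost without L-Glu 6 h replicate 2 or 3, or urea 6 h replicate 2 or 3, with adjusted p-values of 0.0614, 0.0585, 0.112 and 0.0525. The other ATPase genes fell on average by 0.21 (RPT1A) to 0.52 (AT5G20000). AT5G20000 and RPT6A share 6.65% to 8.32% of their 50-base stretches, so the split of reads between them is uncertain.

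**Figure D3:**
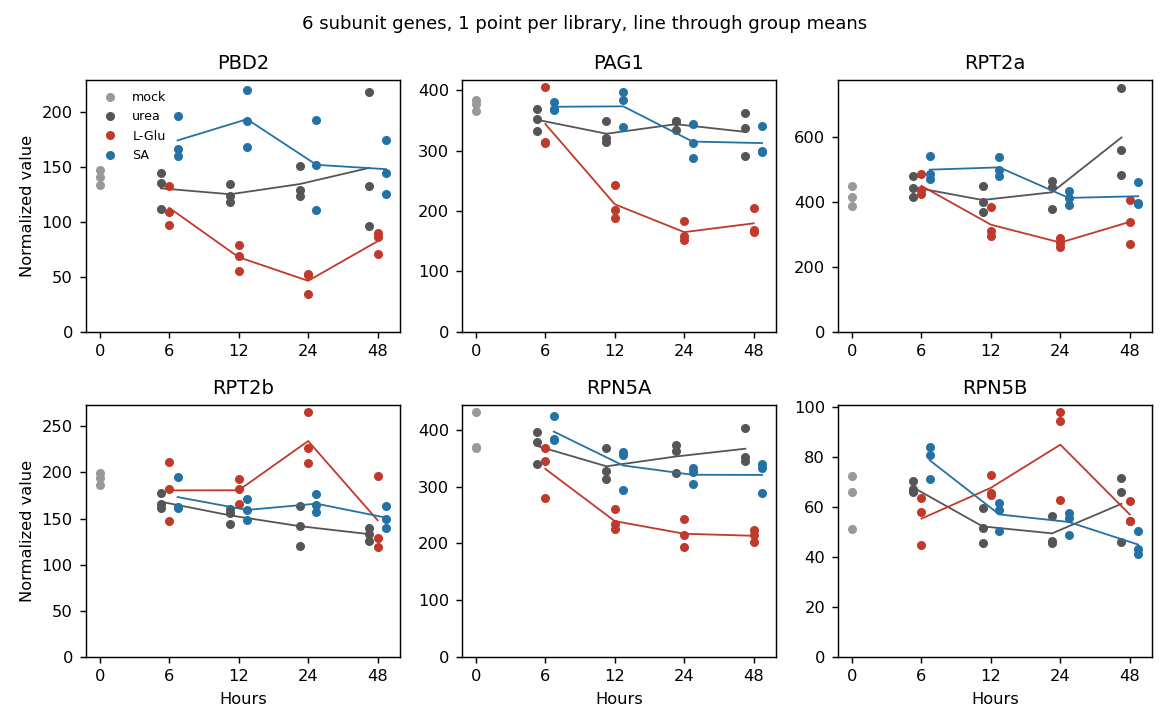
Normalized value of 6 subunit genes in every library against hours, with mock at 0 h and lines through the group means. In L-Glu, PBD2, PAG1, RPT2a and RPN5A lie below urea at 24 h, and RPT2b and RPN5B above it, a direction that is lost for the latter pair when libraries are brought to the same total.

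In the base, RPN1A, a scaffold for ubiquitin receptors, had 508, 563 and 512 in urea at 24 h and 294, 291 and 340 in L-Glu. It fell by 0.78 ± 0.13 there without overlap (adjusted p 5.4e-06). RPN10, a ubiquitin receptor, had 304, 295 and 305 in urea at 12 h and 258, 239 and 219 in L-Glu, and at 24 h 284, 322 and 275 against 292, 241 and 339. Its libraries were apart at 12 h and overlapped at 24 h, and it was called at no single time. Over all times its log2 fold change was -0.23 ± 0.07 (adjusted p 0.00605), and without replicate 1 of every group it was -0.20 with an adjusted p of 0.0973.

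In the lid, RPN5A and RPN5B also moved apart. RPN5A had 363, 373 and 324 in urea at 24 h and 243, 215 and 193 in L-Glu. RPN5B had 46.3, 56.4 and 45.3 in urea at 24 h and 94.1, 62.5 and 97.8 in L-Glu. RPN5A was lower and RPN5B higher in every L-Glu library at that time. On the opposite strand RPN5B overlaps AT5G64750 over 109 bases and RPN5A overlaps AT5G09910 over 288. Without stated strandedness, reads in these stretches cannot be told apart. The log2 fold change was -0.70 ± 0.12 for RPN5A (adjusted p 4.65e-06) and 0.75 ± 0.18 for RPN5B (adjusted p 0.000541), the latter turning to -0.31 with libraries brought to the same total and to an adjusted p of 0.0598 without replicate 3 of every group. RPN12a, which is known for a part in cytokinin responses, had 231, 204 and 212 in urea at 12 h and 182, 178 and 160 in L-Glu, and 223, 198 and 194 against 200, 220 and 207 at 24 h. It fell at 12 h by 0.31 ± 0.13 (adjusted p 0.0407), its groups overlapped at 24 h, and its averaged log2 fold change was -0.11 ± 0.06 (adjusted p 0.111). Both PCI domain genes of a further lid subunit had small values, -0.13 for AT5G45620 (adjusted p 0.117) and -0.22 for AT4G19006 (adjusted p 0.0126).

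The change from 6 to 24 h was tested directly, as the L-Glu minus urea difference at 24 h less that at 6 h. It was called lower in 14 subunit genes and higher in 3, beside 20.0% and 20.3% of all genes, and the share of higher calls lay under that background. Of the 14 genes, 9 were alpha ring genes, of 12 in that class, and PBD2 had the lowest value at -1.33. The 3 higher ones were RPT5A, RPT2b and RPN5B. Leaving out replicate 2, or replicate 3, of every group left 8 lower calls. Of all genes 16.7% and 14.5% were then called lower, so the subunit share was near the background.

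Where 2 of the 48 genes encode a subunit, the log2 ratio of the first to the second was taken within each library. This ratio, which scaling hardly affects, was compared between L-Glu and urea. Subunits with a copy outside the 48, such as RPN1, were not compared. At 24 h RPN1A had a mean of 527 in urea and 308 in L-Glu, and RPN1B 225 and 362. The ratio of these 2 genes was not tested. Of 17 pairs, 7 differed in an exact permutation test within times (two-sided, Benjamini-Hochberg over the pairs, n = 12 libraries a treatment). The RPT2a to RPT2b ratio was 1.63 ± 0.36 in urea and 0.91 ± 0.56 in L-Glu (SD, exact adjusted p 0.00159). The RPN5A to RPN5B ratio was 2.63 ± 0.23 in urea and 1.91 ± 0.49 in L-Glu (exact adjusted p 0.00159). These ratios moved towards the copy that is less abundant in urea, and by level per kilobase RPT2a made up 77.0% ± 4.1 of the RPT2 level in urea and 66.6% ± 8.6 in L-Glu.

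The first gene was likewise the one that lost ground in PBC (PBC1 to PBC2, 0.90 ± 0.17 in urea and 0.38 ± 0.25 in L-Glu, exact adjusted p 0.000213). PBC1 had 166, 162 and 190 in urea at 24 h and 129, 106 and 135 in L-Glu, while PBC2 had 93.6, 96.0 and 107 against 111, 99.1 and 90.1. PBC1 was lower in every L-Glu library and PBC2 overlapped. In the RPN2 pair (AT2G32730 to AT1G04810) the ratio differed by -0.45 and in RPN8 (RPN8A to MEE34) by -0.44. In PAA it differed by 0.37 and in PBD by 0.46, where the second gene is the more affected. The PBD call was lost without any of the 3 replicates (exact adjusted p 0.0629 to 0.112) and the RPN8 call without replicate 1 (exact adjusted p 0.112). The other 10 pairs did not pass, with differences of -0.25 (PBE) to 0.27 (RPT6), which does not show that their copies respond alike. The mRNAs of a pair were 77.9% to 89.3% identical over their aligned bases.

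**Figure D4:**
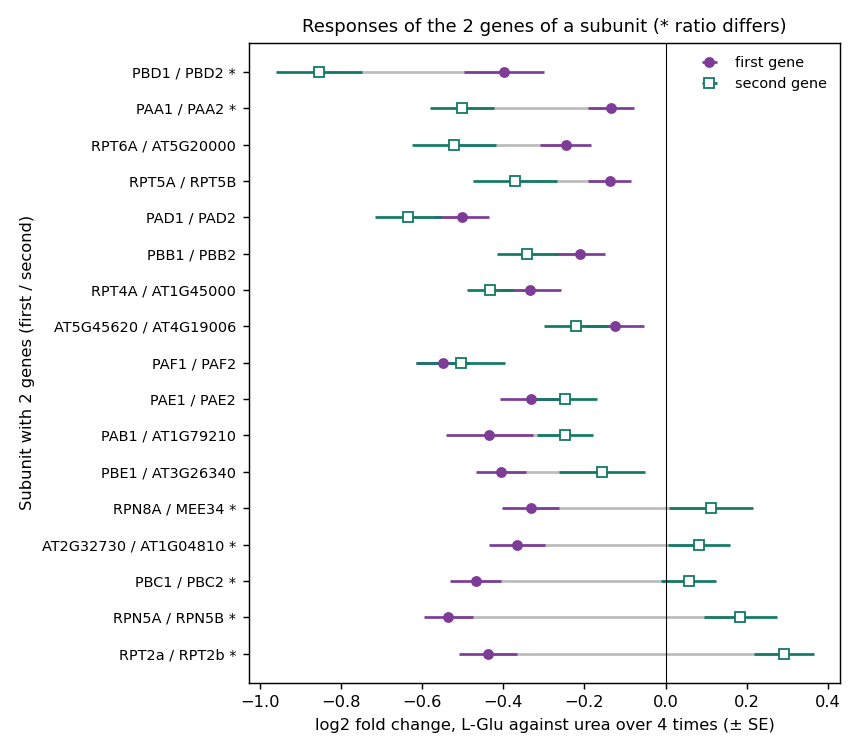
Log2 fold change of L-Glu against urea averaged over 4 times for the first gene (filled circle) and second gene (open square) of each of 17 subunits, with bars of 1 SE. Asterisks mark the 7 pairs whose ratio differed in the exact permutation test. RPT2b (0.29) and RPN5B (0.18) lie right of zero while their partners lie left of it, and both move left of zero when libraries are brought to the same total.

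Upstream sequence is shown for 2 of these pairs, because both of their genes have bases before the start that lie in no other annotated gene. The motif searched was TGGGC on both strands, the core of the proteasome-related cis-element to which NAC53 and NAC78 are known to bind. The sequences are from RefSeq's TAIR10.1 genome, 5′ to 3′ on the gene's own strand, end at the base before the annotated start and have matches in capitals.
RPT2a, chr4:14312129-14312282, plus strand: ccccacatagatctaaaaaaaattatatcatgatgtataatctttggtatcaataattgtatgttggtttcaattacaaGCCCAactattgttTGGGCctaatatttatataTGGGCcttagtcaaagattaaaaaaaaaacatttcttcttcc
RPT2b, chr2:8692491-8692566, plus strand: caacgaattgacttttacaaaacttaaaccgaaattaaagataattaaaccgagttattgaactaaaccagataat
AT2G32730, chr2:13879709-13879958, plus strand: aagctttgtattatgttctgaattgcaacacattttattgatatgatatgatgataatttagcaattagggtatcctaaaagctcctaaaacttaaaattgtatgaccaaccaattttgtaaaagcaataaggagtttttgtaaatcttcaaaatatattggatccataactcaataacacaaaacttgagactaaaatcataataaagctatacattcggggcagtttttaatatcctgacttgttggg
AT1G04810, chr1:1349830-1350079, plus strand: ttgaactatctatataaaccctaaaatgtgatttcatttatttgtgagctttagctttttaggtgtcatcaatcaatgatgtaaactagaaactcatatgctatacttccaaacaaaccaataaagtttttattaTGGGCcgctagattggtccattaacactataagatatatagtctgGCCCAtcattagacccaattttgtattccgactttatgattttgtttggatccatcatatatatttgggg
RPT2a has 3 matches, 42, 61 and 75 bases upstream, and RPT2b none in its shorter clear stretch. In the RPN2 pair it is AT1G04810, the gene that did not fall, that has 2 matches. Over the 250 bases before the start, 23 of 48 subunit genes (47.9%) held TGGGC, against 25.5% of 19504 genes. The longer TGGGCC, which contains TGGGC, was held by 35.4% and 16.4%, the telo-box AAACCCTA by 6.2% and 3.49%, the G-box CACGTG by 2.1% and 7.33% and the TATA box TATAAA by 43.8% and 46.4%, each on both strands. These windows run into another gene at 21 of the 48. The averaged L-Glu fold change had a median of -0.34 in the 23 genes with TGGGC and -0.34 in the 25 without. At 24 h the medians were -0.45 and -0.39. In SA they were 0.10, with 8 genes higher and 3 lower, and 0.18, with 13 higher and none lower. These differences were not tested. A match is a description of letters and not a binding site.

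In SA most higher calls of subunit genes at single times were made at 6 and 12 h, and a change with time was not tested. Averaged over the times 21 of 48 rose and 3 fell against urea, beside 28.2% and 29.2% of all genes, with a median log2 fold change of 0.14. These comparisons use the same urea libraries as those of L-Glu. At 6 h 13 rose and none fell (all genes 15.9% and 13.5%), at 12 h 18 rose and none fell (16.2% and 15.6%), at 24 h 7 rose and none fell (15.1% and 15.5%), and at 48 h none rose and 3 fell (13.5% and 14.9%). The average depends on scaling, since quantile normalization gave 9 higher and 8 lower with a median of 0.01 relative to all genes, and the same total gave 10 and 4. Of all genes 26.7% were higher and 29.1% lower under quantile normalization, and 22.0% and 35.0% at the same total. In both settings the share of higher subunit genes was thus under the background. Relative to all genes the subunit median was 0.14 at the same total, against 0.15 as deposited. Without replicate 3 of every group 11 rose, a share near the 22.6% of all genes called higher. Without urea 48 h replicate 1 there were 24 higher and none lower on average (all genes 27.8% and 28.7%), and 3 higher and 1 lower at 48 h.

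The highest averaged values in SA were those of PAA2, AT1G04810 and PAF1. PAA2 had 285, 307 and 289 in urea at 12 h and 504, 529 and 508 in SA, a 1.74-fold difference without overlap. AT1G04810, which RefSeq describes as a Rpn2/Psmd1 subunit, had 246, 217 and 241 in urea at 6 h and 436, 372 and 486 in SA, a 1.82-fold difference without overlap. PAF1 had 246, 249 and 250 in urea at 12 h and 440, 430 and 478 in SA, a 1.80-fold difference without overlap. Averaged log2 fold changes were 0.57 ± 0.08 for PAA2 (adjusted p 2.21e-07), 0.56 ± 0.08 for AT1G04810 (1e-07) and 0.50 ± 0.07 for PAF1 (7.45e-08), and under the scaling alternatives they stayed above 0. RPT1A (0.49), RPT3 (0.44), PBF1 (0.36) and PBC1 (0.33) also rose.

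The lower genes in SA were AT3G26340 (-0.28 ± 0.11, adjusted p 0.0243), PAC1 (-0.16 ± 0.06, adjusted p 0.0238) and RPN1A (-0.15 ± 0.07, adjusted p 0.0465). AT3G26340 had 49.3, 40.3 and 56.1 in urea at 24 h and 40.2, 29.2 and 32.6 in SA. PAC1 had 352, 333 and 348 in urea at 24 h and 281, 298 and 292 in SA. RPN1A had 508, 563 and 512 in urea at 24 h and 488, 492 and 422 in SA. At that time each of the 3 genes was lower in every SA library. All 3 calls were lost without urea 48 h replicate 1, with adjusted p-values of 0.0537, 0.0701 and 0.134. At 48 h RPT2a (-0.50), RPT5B (-0.72) and AT5G20000 (-0.58) fell, and without urea 48 h replicate 1 RPT5B alone remained called (adjusted p 0.047). Of the 17 pair ratios 5 differed in SA, PAA (-0.32), PAF (0.28), PBE (0.56), RPT5 (0.41) and RPN2 (-0.59), in the exact permutation test. The PAF call was lost without replicate 2 or 3 (exact adjusted p 0.153 and 0.417), and the RPT5 call without replicate 1 or 3 (exact adjusted p 0.0524 and 0.0591).

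A direct comparison of L-Glu with SA, averaged over the times, found 43 subunit genes lower in L-Glu and 1 higher, beside 35.6% and 37.3% of all genes. The median log2 fold change was -0.46, and the lowest values were those of PBD2 (-1.16 ± 0.11), PAA2 (-1.07 ± 0.08) and PAF1 (-1.05 ± 0.07). The higher gene was RPT2b (0.16 ± 0.07, adjusted p 0.0445), a call that was lost under quantile normalization, at the same total, in a fit of the compared groups alone and without any of the 3 replicates. Urea averaged over the times had a median log2 fold change of -0.11 against mock for these genes. Of the 48 genes 39 lay below the median of all genes, which was -0.02. Without urea 48 h replicate 1 the median was -0.15 and 41 lay below that of all genes. RPT2b fell by 0.38 ± 0.12 (adjusted p 0.0232) and no other subunit gene was called, beside 6.14% of all genes lower and 7.79% higher. RPT2b had 194, 200 and 187 in mock and 140, 126 and 134 in urea at 48 h. Since mock exists at 0 h alone, an effect of urea and one of age cannot be told apart, and the call was lost without replicate 1 or 3 of every group.

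In the rest of the ubiquitin and proteasome pathway genes were called in both directions in L-Glu. NAC53 had 111, 110 and 99.7 in urea at 24 h and 912, 1146 and 1216 in L-Glu, and NAC78 had 264, 314 and 249 in urea and 984, 903 and 1052 in L-Glu. Neither gene's libraries overlapped. At 24 h the log2 fold change was 3.33 ± 0.23 for NAC53 and 1.83 ± 0.14 for NAC78, with limma adjusted p-values of 8.7e-15 and 8.61e-14. PA200, an activator that caps the core particle, rose as well (2.15 ± 0.18 at 24 h and 1.25 ± 0.09 on average). The summed level of the subunit genes was low at that time. In SA the averaged log2 fold changes were 0.71 for NAC53, 0.50 for NAC78 and 1.41 for PA200, and all 3 genes were also called higher at the same total in both treatments.

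**Figure D5:**
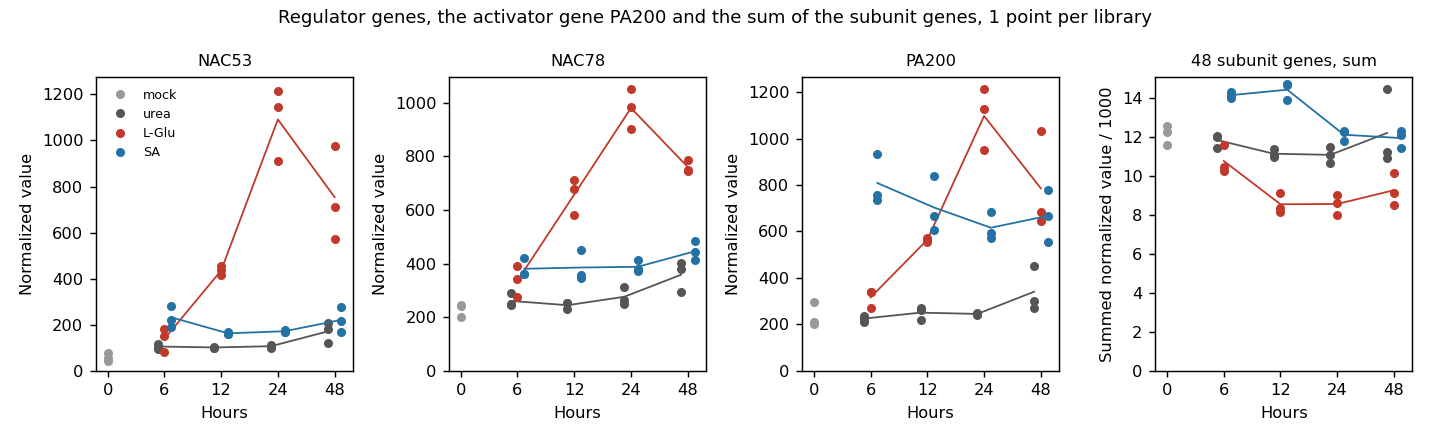
Normalized values of NAC53, NAC78 and PA200, and the summed normalized value of the 48 subunit genes divided by 1000, in every library against hours, with mock at 0 h and lines through group means. In L-Glu the mean of each of the 3 single genes is highest at 24 h, while the summed subunit level at 12 and 24 h lies below every urea library of the same time.

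Over regulators, activators and assembly factors, 4 of 8 genes rose and 3 fell in L-Glu on average, where 33.0% of all genes were called higher and 36.4% lower, shares that hold beside each list that follows. The lowest were AT1G48170 (-0.46) and AT1G67250 (-0.29). Of 6 other subunit genes 3 fell and 1 rose, DSS1(V) (-0.69), DSS1(I) (-0.51) and AT1G53780 (-0.49) against RPN1B (0.42), which had -0.08 at the same total. Of 20 genes of ubiquitin, its activating enzyme and common conjugating enzymes, 12 fell and 2 rose, with UBC8 (-1.13) and UBC10 (-0.76) lowest and UBQ11 (0.79) and UBQ4 (0.58) highest. UBC8 and UBC10 are conjugating enzymes and UBQ11 and UBQ4 polyubiquitin genes, and UBQ11 had -0.02 under quantile normalization. Of 17 shuttle factors, CDC48 genes and deubiquitinases 8 rose and 6 fell, from RAD23C, a shuttle factor (-0.96), and CDC48A (-0.35) to PUX5 (0.80) and CDC48B (1.16). For this list the counts turned to 3 higher and 11 lower at the same total, shares near the 18.6% and 60.3% of all genes in that setting.

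The COP9 signalosome, a complex built on the plan of the proteasome lid, had 7 of 10 genes higher and 1 lower in L-Glu, from CSN8 (-0.38) and CSN2 (-0.11, adjusted p 0.0715) to CSN7 (0.68) and CSN6B (0.88). At the same total 2 of its genes were higher and 4 lower, beside 18.6% and 60.3% of all genes. Relative to the median of all genes its median was 0.42 as deposited and 0.39 at the same total, and that of the lid was -0.14 and -0.17, a difference that was not tested. Autophagy genes, of the other major degradation route, were 3 higher and 6 lower of 18, shares under and near those of all genes, with ATG8I (-0.84) and ATG8B (-0.77) lowest and NBR1 (0.84) and ATG2 (0.77) highest, NBR1 having -0.01 under quantile normalization. In SA 15 of these 18 rose and none fell, beside 28.2% and 29.2% of all genes, and ATG8B had a log2 fold change of 2.55 ± 0.17.

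The genes whose mean pattern over the 13 groups was most like that of the subunits were RAN3 (Pearson r 0.969), UBC19 (0.959), CRT1a (0.952), AT4G34110 (0.951), AT5G07340 (0.950), RHL2 (0.948), AT2G47320 (0.946), AT1G09490 (0.944), AT5G26680 (0.944) and AT3G03070 (0.943). The points are group means of the same libraries, so these values are a description. Among the subunit genes themselves, r with this mean pattern, which includes the gene, ran from 0.983 (PBE1) to -0.17 (RPN5B) and -0.29 (RPT2b).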

How the data were processed

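The 39 libraries are whole-seedling RNA-seq. The deposited values are a normalized signal, not whole numbers, so depth is unknown and no counting interval or floor is given. Alignment with TopHat2 2.1.0, counting with HTSeq 0.6.0 and use of edgeR 3.22.3 on the TAIR10 build are listed in the submitters' processing notes; the scaling and strandedness are not given in the sources used here. From these values, log2(value + 1) of the 20001 genes, each with a value of at least 1 in 3 libraries or more, was fitted with limma 3.58.1 in R 4.3.3 (13 group means, trend, 26 residual degrees of freedom, two-sided, Benjamini-Hochberg over all genes, threshold 0.05). Fold changes are on that scale and understate changes of low genes. Ratios of the 17 gene pairs were compared by exact permutation of treatment labels within times (160000 arrangements, smallest p 1.25e-05). Scripts were tested on simulated data.

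Groups come from the sample labels. Alternatives were the pseudocount, the filter, 3 other scalings, a fit of the compared groups alone, a replicate block and leaving out replicates. Named genes are those with the highest and lowest called changes, the pairs whose ratio differed most, and RPN10, RPN12a, RPT2a, PBA1, NAC53 and NAC78; other lists give their 2 highest and 2 lowest genes. The members and lists were chosen with earlier results of these data known. Of 100 genes on the other lists 91 were used. Gene names, mRNA lengths and upstream sequences are from RefSeq's TAIR10.1 (Python 3.11.15, Biopython 1.88), in which 19887 of the 20001 identifiers and all 48 members matched. Of the members 18 overlap another annotated gene, and without stated strandedness reads of overlapping genes cannot be told apart. The upstream sequence of a further pair is not reported here.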

Additional observations from a re-analysis of the deposited data

Results flagged for a closer look

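In 17 subunit genes the L-Glu minus urea difference itself changed between 6 and 24 h, by limma's test of that change with an adjusted p below 0.05 over all genes. Of these 14 were lower and 3 higher, where 20.0% and 20.3% of all genes were so called, so the number called in both directions together was under the background. Among alpha ring genes the log2 change was -1.07 for PAD1, -1.06 for PAF2, -1.02 for PAG1, -0.83 for PAA2, -0.80 for PAB1, -0.78 for PAD2, -0.77 for PAF1, -0.67 for PAC1 and -0.59 for AT1G79210. PBD2 of the beta ring had -1.33. In the regulatory particle the change was -0.65 for RPT2a, -0.58 for AT4G24820, -0.54 for RPN1A and -0.53 for RPN5A. It was 0.61 for RPT5A, 0.64 for RPT2b and 1.05 for RPN5B. With libraries brought to the same total no subunit gene was called with a higher change, where 8.55% of all genes were.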

How the results depend on the processing

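Over 23 results for single genes, 321 of 352 alternative values kept direction and side of the threshold, 24 lost the call, 4 gained one and 3 reversed. The setting without a filter kept the same 20001 genes as the main fit, so its values, counted among the 321, could not differ. The filter at 5 kept 19965 genes and was nearly the same fit. The reversals came with libraries brought to the same total and were those of RPT2b on average (-0.21) and at 24 h (-0.35) and of RPN5B at 24 h (-0.31). Lower calls in L-Glu under quantile normalization numbered 6 at 6 h (5.99% of all genes) and 41 at 12 h (34.8%), and at the same total 45 at 12 h (42.1%), 47 at 24 h (63.3%) and 46 at 48 h (47.5%). A fit of the compared groups alone gave 0 at 6 h (2.4%) and 15 at 48 h (19.5%). For the change from 6 to 24 h the count was 23 under quantile normalization (23.4%) and 45 at the same total (55.0%). Under these settings higher calls in SA were 9 and 10, and urea against mock had 0 lower calls at the same total (4.28%). Leaving out replicates gave 30 to 41 lower calls on average in L-Glu, 0 to 1 at 6 h, 13 to 23 at 12 h, 20 to 31 at 24 h, 14 to 33 at 48 h, 8 to 12 for the change, 40 to 41 against SA, 11 to 22 higher calls in SA, 0 to 1 for urea against mock, 5 to 8 pairs in L-Glu and 3 to 5 in SA. The shares of all genes called lower were then 31.3% to 35.7% on average in L-Glu, 0.555% to 3.85% at 6 h and 14.4% to 19.8% at 12 h. They were 25.5% to 29.4% at 24 h, 22.3% to 26.9% at 48 h and 13.9% to 16.7% for the change. Against SA they were 32% to 33.5%, and for urea against mock 1.59% to 4.86%. In SA 22.6% to 26.2% of all genes were higher. The cause was not tested. Leaving out urea 48 h replicate 1 alone was chosen after seeing the data. It gave 37 lower calls in L-Glu (35.6% of all genes) and 24 higher calls in SA (27.8%) on average. Deviations of same-numbered libraries correlated weakly (36 pairs, r -0.07 to 0.14, 33 above 0 and 5 above 0.1), and since not every pair exceeded 0.1 the numbers were not taken to pair samples. A replicate block gave 39 lower calls on average in L-Glu (36.9% of all genes), 1 at 6 h (3.7%), 25 at 12 h (22.9%), 31 at 24 h (31.9%) and 29 at 48 h (28.3%). With that block there were 14 lower calls for the change (20.8%), 43 against SA (36%), 1 for urea against mock (6.82%) and 23 higher calls in SA (28.7%). Depth is unknown, so its limit on small differences cannot be given.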
